A study of Mus musculus with 12 samples.

Results

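Transcripts of the cohesin core subunits were followed in mouse glutamatergic neurons grown in vitro from embryonic stem cells. The set comprised 9 genes, picked by symbol out of 33560 genes with counts: the kleisins Rec8, Rad21 and Rad21l, the ATPases Smc1a, Smc1b and Smc3, and the STAG proteins Stag1, Stag2 and Stag3. It was assembled because Rec8 had been seen to be lower in knockout neurons in these libraries, so the Rec8 difference between genotypes is described here without a test. The 12 libraries of poly(A) RNA came from 6 cell lines, 3 wild-type (WT) and 3 knockout (KO), all harvested at day 21 in culture. Per the series title and the labels, KO lines carry a knockout of a microexon of Daam1, a formin that assembles actin filaments, and WT lines do not. Each line gave 1 library after water and 1 after the ROCK inhibitor Y-27632 (10 µM), both for 2 h, so there were 4 groups of 3. The lines are called WT1 to WT3 and KO1 to KO3, and a library is named by its line and treatment. The series text speaks of hippocampus, whereas every sample label describes these cultured neurons, and the labels were followed. No source used here says whether each line is a single clone. P-values of the fit of 12 libraries measure a spread between libraries within groups that is shared over the 4 groups. That fit has no term for the line, so the pair of libraries of a line counts as unpaired. Where that pair was summed, p-values measure the spread between the 3 lines per genotype.

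Cohesin is a ring that holds sister chromatids together and folds chromosomes into loops. An SMC1 protein and Smc3 form the arms of the ring, a kleisin closes it, and a STAG protein binds the kleisin. Dividing cells, and cells that have left the cycle such as neurons, use Rad21, Smc1a, Smc3 and Stag1 or Stag2. Germ cells in meiosis keep Smc3 and bring in Rec8 or Rad21l as kleisin, Smc1b and Stag3, which are usually counted among germline genes.

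The libraries held 23253566 to 35012561 counts. On the first principal component of log2 CPM (counts scaled to TMM-adjusted library size), which carried 74.3% of the variance, KO3 inhibitor lay at 163, followed by WT2 vehicle (68.1) and WT3 inhibitor (60.3), with the other 9 between -73.8 and 1.41. These 3 libraries stood apart, and results that rest on them are given with and without them. Summed over 11 glutamatergic and general neuronal genes, KO3 inhibitor had 469 CPM and the remaining 11 libraries had 1609 to 2341 CPM. Tubb3, Map2 and Slc17a6, the vesicular glutamate transporter, led this sum, while Slc17a7, Tbr1, Neurod1, Neurod2 and Neurod6 lay between 0.164 and 2.07 CPM. The 9 GABAergic genes summed to 298 CPM in KO3 inhibitor and 597 to 808 CPM in the others. Gad1, Gad2, Slc32a1 and Sst had means of 191, 174, 152 and 113 CPM, while Dlx1, Dlx2 and Dlx5 were at 1.11 CPM or less. GABAergic transcripts were thus plentiful in cultures labelled glutamatergic. Summed over 15 proliferation genes, these 3 libraries had 1017, 572 and 420 CPM, against 46.9 to 233 CPM in the others. Daam1 averaged 167 ± 14.7 CPM in vehicle-treated WT and 166 ± 14.2 in vehicle-treated KO neurons, and 157 ± 20.5 and 141 ± 64.2 CPM with inhibitor (SD, n = 3 each). A microexon is too small for a count per gene to check the genotype labels.

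Rec8 lay among the mitotic subunits other than Rad21 and Stag3 below all of them, while the other meiotic subunits, Smc1b and Rad21l, were near the limit of detection. Measured per gene length in the deposited cRPKM (RPKM in a corrected form), Rad21 was the most abundant at 53.9 ± 2.68 (mean ± SD over the 12 libraries). Smc3 (15.2 ± 4.75), Smc1a (14.5 ± 2.17) and Stag2 (14.3 ± 2.03) followed and did not differ beyond their spread. Rec8 came next at 9.32 ± 3.60 cRPKM, within its spread of Stag1 at 8.76 ± 1.13. Stag3 lay at 4.30 ± 1.38 cRPKM. Smc1b reached only 0.0683 ± 0.0199 cRPKM, from 4 to 13 counts per library. Rad21l was listed at 0.0267 ± 0.0210 cRPKM and had 0 to 2 counts, so all 12 libraries lay under the floor of 3 counts that a count of 0 allows (counting error only). The place of Rec8 in this order moved with genotype: in WT inhibitor libraries it stood at 13.3 ± 1.30 cRPKM, beside Smc3 at 14.1 ± 1.41, and in KO inhibitor libraries at 5.48 ± 1.16, below Stag1 at 9.29 ± 2.34.

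**Figure D1:**
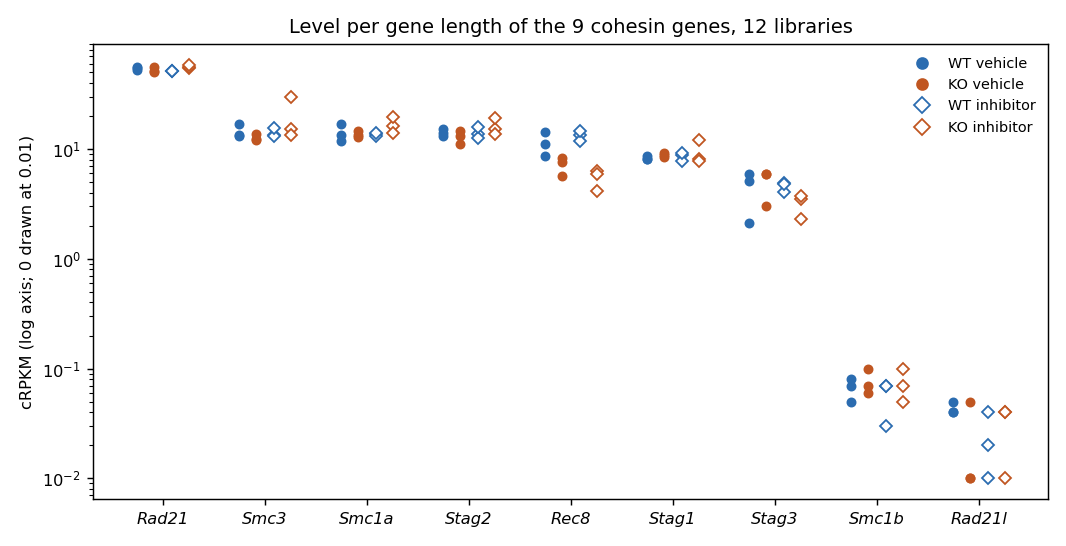
Deposited cRPKM (log axis) of the 9 cohesin genes in each of the 12 libraries, coloured by genotype, filled for vehicle and open for inhibitor; values of 0 are drawn at 0.01. Rad21 lies highest, Rec8 overlaps the range of the mitotic subunits, and Smc1b and Rad21l lie at or below 0.1.

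The promoter windows of the 4 meiotic members are shown because these genes split into a detected pair and a nearly silent pair. They are RefSeq sequences of GRCm38.p6, from 250 bases before to 50 after the start, with matches on either strand to CCAAT, or to the E2F-type letters TTCCCGC, or to the E-box CACGTG in capitals. None of the matches overlapped another. The start used there need not be that of the annotated gene: the Stag3 window lies inside the annotated gene, which begins at 138280240. The windows are chr14:55617916-55618215 (plus strand) for Rec8, chr5:138280259-138280558 (plus) for Stag3, chr15:85131908-85132207 (minus) for Smc1b and chr2:151668484-151668783 (minus) for Rad21l.
Rec8: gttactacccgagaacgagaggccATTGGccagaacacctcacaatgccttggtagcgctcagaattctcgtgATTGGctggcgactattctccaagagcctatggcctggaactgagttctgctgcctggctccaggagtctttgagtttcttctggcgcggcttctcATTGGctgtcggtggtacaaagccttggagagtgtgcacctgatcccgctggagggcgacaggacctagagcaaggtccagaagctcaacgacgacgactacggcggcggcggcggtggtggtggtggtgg
Stag3: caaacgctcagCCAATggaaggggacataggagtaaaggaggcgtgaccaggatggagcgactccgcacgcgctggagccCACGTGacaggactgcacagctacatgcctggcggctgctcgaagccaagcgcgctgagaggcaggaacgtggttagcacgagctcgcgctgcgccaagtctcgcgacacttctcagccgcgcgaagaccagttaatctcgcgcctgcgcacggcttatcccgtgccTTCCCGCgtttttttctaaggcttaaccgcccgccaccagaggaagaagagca
Smc1b: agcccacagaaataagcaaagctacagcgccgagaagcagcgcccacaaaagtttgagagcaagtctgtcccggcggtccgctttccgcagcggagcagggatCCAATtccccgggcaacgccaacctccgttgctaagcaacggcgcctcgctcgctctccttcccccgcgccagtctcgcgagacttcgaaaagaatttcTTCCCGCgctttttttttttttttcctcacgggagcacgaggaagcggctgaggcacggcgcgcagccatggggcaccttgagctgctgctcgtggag
Rad21l: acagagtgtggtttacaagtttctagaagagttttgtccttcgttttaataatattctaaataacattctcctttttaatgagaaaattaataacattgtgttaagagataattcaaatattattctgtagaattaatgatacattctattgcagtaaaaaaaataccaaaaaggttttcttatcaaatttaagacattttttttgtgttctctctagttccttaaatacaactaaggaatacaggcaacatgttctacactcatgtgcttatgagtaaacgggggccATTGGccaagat
Rec8 held 3 CCAAT matches, all in the reverse form ATTGG, where 37.4% of 32851 promoters held at least 1 and 3.37% at least 3. Stag3 held 1 match to each motif. Smc1b shared the TTCCCGC match with Stag3 (4.60% of all promoters held it) and had 1 CCAAT match, while the CACGTG of Stag3 (7.15% of promoters) was missing from the other 3 windows. CpG dinucleotides numbered 18 in Rec8, 30 in Stag3, 29 in Smc1b and 2 in Rad21l, against a median of 7. Smc1b, nearly silent, thus resembled the detected Stag3 in these matches and in CpG number. This was not particular to meiotic genes: the windows of Smc1a and Stag1 also held 1 CCAAT and 1 TTCCCGC match, with 23 and 43 CpG. A match describes letters, not a bound site. Of the 9 members, 7 had an entry; Rad21 and Stag2 had none.

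Rec8 was lower in KO than in WT neurons in both treatments, and this is the difference that chose the set. Rec8, the meiotic kleisin (ENSMUSG00000002324, chromosome 14, 55618037 to 55625395, plus strand, GRCm38), had 29.6, 19.1 and 23.2 CPM in WT vehicle and 16.7, 17.7 and 12.4 CPM in KO vehicle (lines 1 to 3). With inhibitor the values were 28.6, 25.8 and 31.2 CPM in WT and 13.4, 12.8 and 8.37 CPM in KO. All 6 KO libraries lay below all 6 WT libraries, and the nearest pair was WT2 vehicle (19.1 CPM) and KO2 vehicle (17.7 CPM). How large a share of all genes separates like this was not counted, and each line enters with both of its libraries. With the pair of libraries of each line summed, the WT lines had 29.1, 22.5 and 27.2 CPM and the KO lines 15.0, 14.8 and 10.2 CPM, so that the KO mean was 0.506 of the WT mean. The fitted log2 differences (± SE, n = 3 against 3) were -0.62 ± 0.23 in vehicle, -1.30 ± 0.23 in inhibitor and -0.96 ± 0.20 over line sums. Leaving out each library or line in turn gave -0.77 to -0.44, -1.43 to -1.12 and -1.06 to -0.81, and without the 3 libraries that stood apart the values were -0.76, -1.01 and -0.87. For that last value, over line sums, WT2 was its inhibitor library alone, and WT3 and KO3 were their vehicle libraries alone. In bulk RNA, fewer cells of a type and less RNA per cell cannot be told apart.

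**Figure D2:**
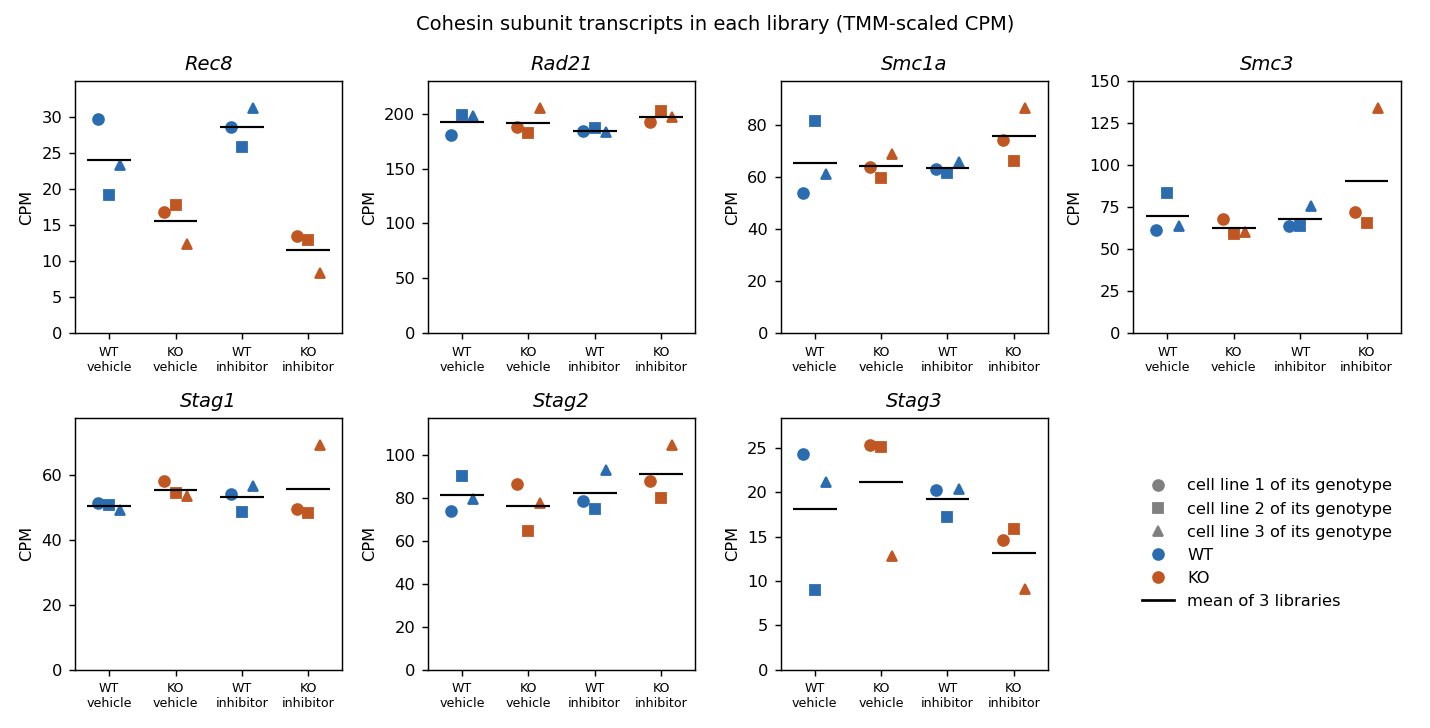
CPM (linear axes from 0) of the 7 cohesin genes kept for testing, by group; symbols mark the cell line and the black line is the mean of 3 libraries. Rec8 is lower in all KO libraries than in all WT libraries, Stag3 is low in WT2 vehicle and in both KO libraries of line 3, and Smc3 is highest in KO3 inhibitor.

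No gene passed an adjusted p of 0.05 between genotypes in edgeR's quasi-likelihood test, in vehicle (0% of 15443 genes called), in inhibitor (0%) or over line sums (0% of 16090), so no cohesin gene was called either. The smallest adjusted p over all genes was 0.999, 0.856 and 0.0771, and 307, 540 and 426 genes had an unadjusted p below 0.05. By direction these were 0.557% higher and 1.43% lower in vehicle, 1.32% and 2.18% in inhibitor, and 0.982% and 1.67% over line sums. Rec8 aside, 0 members were among them. DESeq2 called 11, 18 and 87 genes (0.0712%, 0.117% and 0.541%). Whether Rec8 is among these is not given, since its difference chose the set. The low-count filter kept 7 of the 9 members for the 12-library fit and 8, with Smc1b, for line sums. Over these, the median log2 difference was -0.03, 0.10 and 0.10, against -0.01, -0.00050 and 0.04 over all genes.

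Stag3, the STAG protein of meiosis (ENSMUSG00000036928, chromosome 5, 138280240 to 138312393), overlapped between genotypes in vehicle and separated with inhibitor, in neither case past the test. It had 24.3, 9.04 and 21.1 CPM in WT vehicle and 25.4, 25.1 and 12.9 CPM in KO vehicle, so the groups overlapped. With inhibitor it had 20.2, 17.2 and 20.3 CPM in WT and 14.6, 15.8 and 9.07 CPM in KO, with no overlap. The log2 differences were 0.22 ± 0.38 in vehicle and -0.55 ± 0.38 in inhibitor. Over line sums it was -0.15 ± 0.31, and without KO line 3 it was 0.08. Without WT2 vehicle the vehicle value was -0.11. The lowest Stag3 values, 9.04 CPM in WT2 vehicle and 9.07 in KO3 inhibitor, came from the libraries with the highest proliferation sums (572 and 1017 CPM). The next lowest, 12.9 CPM in KO3 vehicle, came with a sum of 64.7 CPM. WT3 inhibitor, with a sum of 420 CPM, had 20.3 CPM of Stag3. The part of cell mix in these values was not tested.

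Smc1b and Rad21l were too sparse for the 12-library fit, and Smc1b alone could be fitted over line sums. Smc1b, the meiotic partner of Smc3 (ENSMUSG00000022432, chromosome 15, 85064689 to 85131964), had 9, 5 and 8 counts in WT and 8, 9 and 6 in KO with vehicle. With inhibitor the counts were 4, 8 and 8 in WT and 13, 10 and 6 in KO. Its log2 difference over line sums was 0.32 ± 0.29, and an annotated pseudogene overlaps it on the opposite strand. Rad21l, the other meiotic kleisin (ENSMUSG00000074704, chromosome 2), had 6, 2, 3 and 4 counts summed over WT vehicle, KO vehicle, WT inhibitor and KO inhibitor. A difference in Rad21l was not detectable at this depth.

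The mitotic subunits had small fitted differences between genotypes, none past the test. Rad21, the kleisin cut by separase at anaphase, ranged from 181 to 205 CPM over all 12 libraries, and its log2 difference was -0.01 ± 0.10 in vehicle and 0.10 ± 0.10 in inhibitor. In inhibitor the KO libraries (193 to 202 CPM) lay above the WT libraries (183 to 187 CPM). Smc1a, the mitotic SMC1 protein encoded on the X chromosome, also did not overlap with inhibitor, at 66.2 to 86.5 CPM in KO and 61.4 to 65.7 CPM in WT (0.25 ± 0.16). Stag1 was the only member higher in KO without overlap in vehicle, at 53.5 to 58.1 against 49.2 to 51.4 CPM (0.13 ± 0.14). Such separation of groups was found in 7.62% of genes tested in vehicle in the higher direction and 4.9% in the lower; in inhibitor these shares were 3.51% and 7.03%. Rec8 separated downwards in vehicle, in inhibitor and over line sums, but its difference chose the set, so it is not counted here. Of the other tested members, Stag1 alone separated in vehicle (upwards). In inhibitor Rad21 and Smc1a separated upwards and Stag3 downwards. Over line sums none of the others separated (4.9% of all genes did so downwards, 3.56% upwards).

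Smc3, the ATPase shared by every cohesin ring (ENSMUSG00000024974, chromosome 19, 53600398 to 53645833), was the mitotic-set gene with the widest spread. With vehicle it had 61.6, 83.2 and 63.7 CPM in WT and 67.8, 59.0 and 60.2 in KO. With inhibitor it had 63.9, 63.9 and 75.9 CPM in WT and 72.1, 65.6 and 134 in KO. The single value of 134 CPM came from KO3 inhibitor, and the next highest came from WT2 vehicle and WT3 inhibitor, the other libraries that stood apart. Its KO against WT difference in inhibitor was 0.41 ± 0.25 with that library and 0.02 without it. Stag2, the more abundant mitotic STAG gene, ranged from 64.5 to 105 CPM with differences of -0.09 ± 0.15 in vehicle and 0.15 ± 0.15 in inhibitor.

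**Figure D3:**
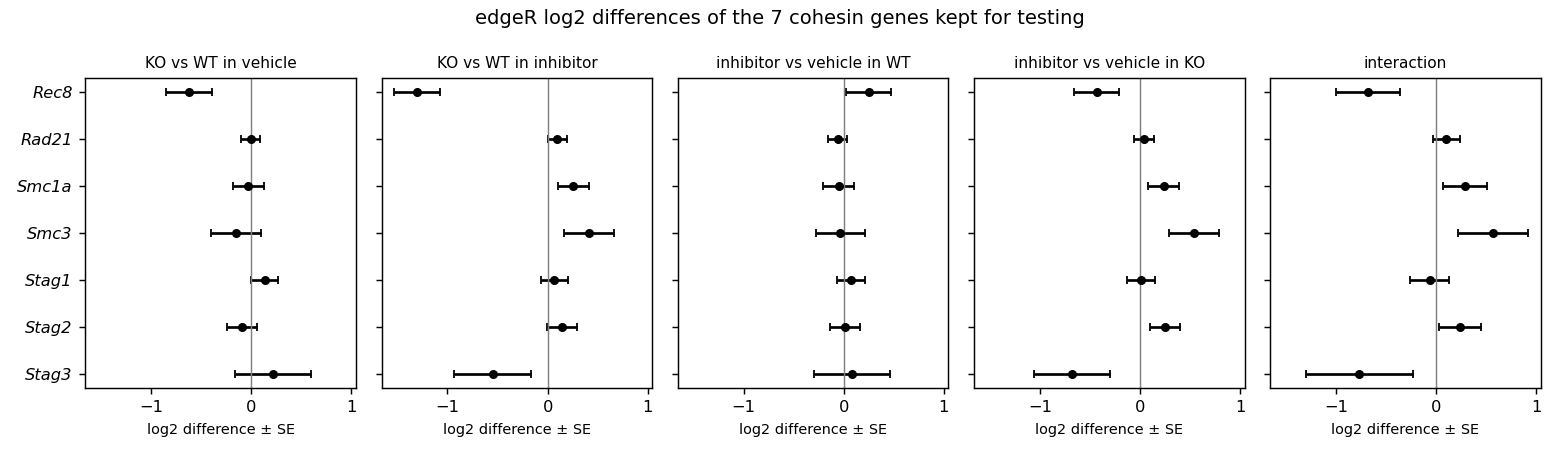
edgeR log2 differences (points) with SE (bars) for the 7 tested cohesin genes in 4 comparisons and the interaction. Rec8 lies at -0.62 and -1.30 between genotypes and at -0.43 for inhibitor against vehicle in KO; the mitotic subunits lie near 0 in vehicle and in WT.

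Within families, measured per length, Rec8 made up 17.2 ± 3.90% of kleisin transcripts in WT and 11.98 ± 2.53% in KO with vehicle, and 20.4 ± 1.75% and 8.85 ± 2.00% with inhibitor (SD, n = 3 each), with Rad21 supplying nearly all of the rest. Stag3 made up 16.3 ± 7.05%, 18.5 ± 5.59%, 16.9 ± 0.879% and 11.6 ± 4.19% of STAG transcripts in the same order. Stag2 supplied 48.4% to 56.1% and Stag1 30.9% to 33.2% on average in the 4 groups. Smc1b never exceeded 0.776% of SMC1 transcripts in a library. The Rec8 share repeats the difference that chose the set and is descriptive.

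Inhibition of ROCK, a kinase that promotes actomyosin contraction, was compared within each genotype, a contrast that did not choose the set although it shares libraries with the one that did. Rec8 was lower after inhibitor in all 3 KO lines, from 16.7 to 13.4, 17.7 to 12.8 and 12.4 to 8.37 CPM. In the WT lines it went from 29.6 to 28.6, 19.1 to 25.8 and 23.2 to 31.2 CPM. Stag3 likewise was lower in all 3 KO lines, from 25.4 to 14.6, 25.1 to 15.8 and 12.9 to 9.07 CPM, while in WT it went from 24.3 to 20.2, 9.04 to 17.2 and 21.1 to 20.3 CPM. Smc1a, Smc3 and Stag2 were higher after inhibitor in all 3 KO lines, and no member of the 7 tested moved one way in all 3 WT lines. Among all 15443 genes, 16% were lower and 15% higher in all 3 KO lines, and 6.9% and 7.68% in all 3 WT lines. As groups, vehicle and inhibitor overlapped for each of the 7 in both genotypes, where 3.04% of genes separated upwards and 2.93% downwards in WT, and 3.19% and 5.65% in KO.

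**Figure D4:**
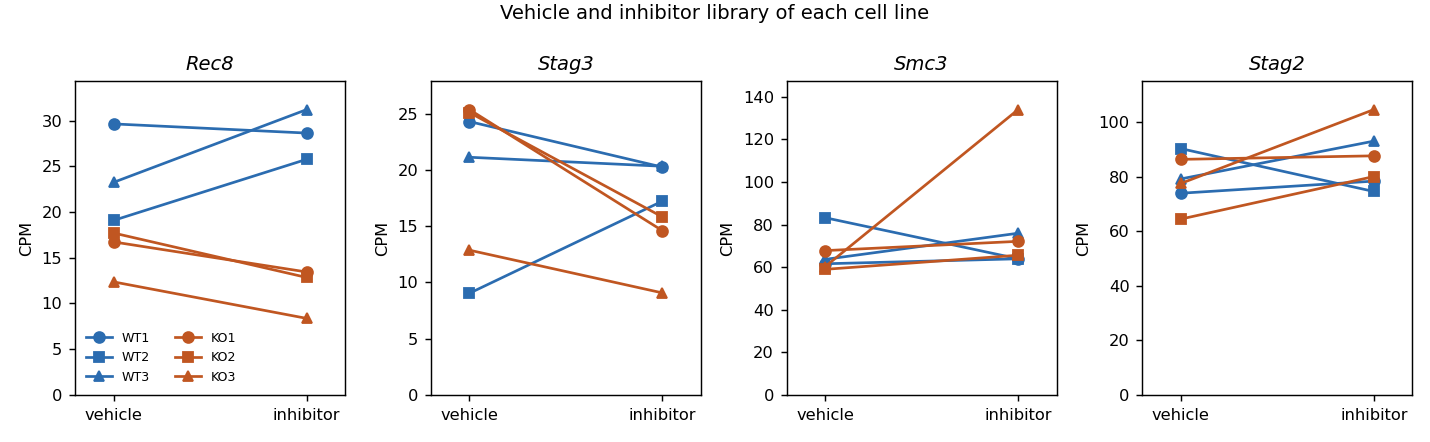
CPM of Rec8, Stag3, Smc3 and Stag2 in the vehicle and inhibitor library of each cell line, joined by a line (linear axes from 0). Rec8 and Stag3 slope down in all 3 KO lines, and the steep Smc3 slope belongs to KO line 3.

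None of these differences passed. In KO, inhibitor against vehicle called 0% of 15443 genes in edgeR (1088 at an unadjusted p below 0.05, 6% of all genes being higher and 1.05% lower) and 0 in DESeq2. No member was among them. Rec8 had a log2 difference of -0.43 ± 0.23 and Stag3 of -0.68 ± 0.38 (edgeR adjusted p of 0.474 for both), and Smc3 of 0.54 ± 0.25 with the same adjusted p. Without KO3 inhibitor these were -0.25, -0.47 and 0.14. Smc1a was at 0.24 ± 0.16, Stag2 at 0.25 ± 0.15, Rad21 at 0.04 ± 0.10 and Stag1 at 0.01 ± 0.14. Stag1 turned to -0.18 without that library. With the cell line as a block Rec8 was at -0.45 and Stag3 at -0.66 (edgeR adjusted p of 0.640 for both).

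In WT, inhibitor against vehicle also called 0% of genes in edgeR, with 47 genes at an unadjusted p below 0.05 (0.168% higher, 0.136% lower, no member), and 0 in DESeq2. The members lay between -0.06 ± 0.10 (Rad21) and 0.25 ± 0.23 (Rec8), each with an edgeR adjusted p of 1.00. The Rec8 value was 0.08 without WT2 vehicle, which had the lowest WT count of Rec8. The median over the 7 members was 0.02 in WT and 0.04 in KO, against 0.01 and -0.02 over all genes.

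The interaction of genotype and inhibitor called 0% of genes in edgeR (185 genes with unadjusted p under 0.05, of all genes 0.641% positive and 0.557% negative, no member) and 0 in DESeq2. Rec8 gave -0.68 ± 0.32 and Stag3 -0.77 ± 0.54, and Smc3 gave 0.57 ± 0.35, each with an edgeR adjusted p of 0.808. The Rec8 value was -0.50 without KO3 inhibitor and -0.25 without the 3 libraries that stood apart. Stag3 was at -0.40 without WT2 vehicle and -0.16 without all 3, and Smc3 at 0.18 without KO3 inhibitor and 0.15 without all 3. The remaining members lay between -0.06 ± 0.19 (Stag1) and 0.28 ± 0.22 (Smc1a).

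Across libraries Rec8 and Stag3 varied in the same direction. Pearson's r of log2 CPM (offset of 0.5 CPM) between them was 0.603 over 12 libraries (Spearman's rho of 0.469), 0.830 over the 6 WT libraries and 0.966 over the 6 KO libraries. Leaving out the 2 libraries with the most extreme Rec8 values gave 0.402. With the mitotic-set genes r over 12 libraries was negative, from -0.679 (Rad21 and Smc1a) to -0.372 (Stag2), but rho was only -0.154 for Smc3 and -0.0699 for Stag1. Their r ran from -0.940 (Rad21) to 0.583 (Stag1) over the 6 WT libraries. Over the 6 KO libraries it ran from -0.929 (Smc1a) to -0.527 (Stag1). The share of all genes with such r within a genotype was not counted. These are descriptions: the 12 points come in pairs from 6 lines, share the library composition, and Rec8 separates the genotypes. Among 13423 genes with a mean of at least 1 CPM, those most like Rec8 over the 12 libraries were En1 (r of 0.943), an engrailed homeobox transcription factor, A330076H08Rik (0.936), Gda (0.914), guanine deaminase, Cntnap3 (0.910) and Elac2 (0.908), a tRNA-processing nuclease. En1 averaged 8.22 CPM in WT and 4.44 in KO with vehicle, and 8.69 and 3.75 CPM with inhibitor. The least like was Myh14 (r of -0.943), a nonmuscle myosin heavy chain, at 6.26, 8.23, 5.57 and 9.24 CPM in the same order. By this measure Stag3 ranked at 1005 of 13423, and Rad21 and Smc1a, near the other end, at 13097 and 13099.

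Regulators of cohesin were present in these neurons and none was called in any comparison by edgeR or DESeq2 (14 of 14 tested, 0 at an unadjusted p below 0.05 in each). The list held the loaders Nipbl and Mau2, the release factors Wapl, Pds5a and Pds5b, the acetylation cycle of Esco1, Esco2 and Hdac8, the protectors Cdca5, Sgo1 and Sgo2a, the cleavage pair Espl1 and Pttg1, and the boundary factor Ctcf. Pds5b was the most abundant by CPM, at 86.1 to 188. With all libraries, 9 of the 14 were lower in KO in vehicle (median log2 difference of -0.16) and 12 higher in inhibitor (0.55). Both directions turned with 1 library: without WT2 vehicle 10 were higher in vehicle (0.10), and without KO3 inhibitor 9 were lower in inhibitor (-0.15). After inhibitor in KO 11 were higher (0.72), or 10 (0.07) without KO3 inhibitor. The smallest unadjusted p there was that of Wapl, at 1.00 ± 0.46 (edgeR adjusted p of 0.474). The 15 proliferation genes behaved alike, with 15 of 15 lower in KO in vehicle (median of -1.54) and 15 of 15 higher in inhibitor (0.82), and 0 called in either. Without WT2 vehicle 11 of 15 were higher in vehicle (0.26), and without KO3 inhibitor 13 of 15 were lower in inhibitor (-1.01). Condensin and SMC5/6 genes, the other SMC complexes, had 12 of 14 lower in vehicle (-0.14) and 12 of 14 higher in inhibitor (0.37), with 0 called. Without the same libraries 9 were higher (0.04) and 11 lower (-0.18). Over all genes the medians were -0.01 in vehicle and -0.00050 in inhibitor. The part of dividing cells in the cohesin values was not tested.

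Most of the other meiotic chromosome genes listed were at low CPM. Of 22 listed, 10 were kept for testing, and 7 (Sycp1, Syce3, Tex12, Hormad1, Meikin, Spo11 and Stra8) never exceeded 3 counts. Syce2, a central element protein of the synaptonemal complex, was the most abundant at 9.64 to 16.3 CPM, and Sycp3, an axis protein also among the germ cell markers, had 0.206 to 1.47 CPM. Between genotypes 7 of the 10 were higher and 3 lower in KO in vehicle, and 5 each way in inhibitor, with 0 called. Without WT2 vehicle 11 were tested, 5 higher and 6 lower in vehicle, and without KO3 inhibitor 6 of 10 were higher in inhibitor. Syce1 had the smallest unadjusted p in vehicle, with a log2 difference of -2.26 ± 0.78 (edgeR adjusted p of 0.999), and Sycp3 in inhibitor, at 1.29 ± 0.54 (0.856), the opposite direction to Rec8. Germ cell markers (11 genes) summed to 3.49 to 4.11 CPM in KO and 4.27 to 4.54 CPM in WT with vehicle. With inhibitor the sums were 3.09 to 4.53 and 4.63 to 5.13 CPM. The genotypes thus separated narrowly within each treatment, but KO1 inhibitor (4.53 CPM) lay above WT1 and WT2 vehicle (4.27 and 4.44 CPM). Of single genes, 4.9% separated downwards in vehicle and 7.03% in inhibitor. Ddx4, a germ cell RNA helicase, had log2 differences of -0.59 ± 0.40 in vehicle, -1.24 ± 0.41 in inhibitor and -0.89 ± 0.24 over line sums (edgeR adjusted p of 0.999, 0.856 and 0.998). It was at 0.159 to 1.34 CPM. In inhibitor Nanos2 (-0.92) and Nanos3 (-0.98) also lay lower at an unadjusted p below 0.05, and of the 6 tested 4 were lower, with 0 called. Without KO3 inhibitor 5 of 6 were lower there, but 1 instead of 3 at an unadjusted edgeR p below 0.05. Without the 3 libraries that stood apart 4 of 5 were lower, 1 of them at that p. Dazl was at 0.545 to 1.07 CPM and Dppa3 at or under 3 counts. Rec8 alone, at 8.37 to 31.2 CPM, exceeded the sum of the 11 germ cell markers in each library, which sets no bound on Rec8 from such cells. The part of germ cell transcripts in the Rec8 difference was not tested.

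Mesenchymal markers lay lower in KO, the same direction as Rec8. Of 10, 8 were lower over line sums (median log2 difference of -2.28), 6 of them at an unadjusted edgeR p below 0.05 (1.67% of all genes were). None was called in edgeR, whereas DESeq2 called 6 over line sums (0.541% of all genes) and 1 in each of vehicle and inhibitor (0.0712% and 0.117%). Without the 3 libraries that stood apart 9 of 10 were lower (-1.30), 5 of them at an unadjusted p below 0.05. In line sums without these, WT2 was its inhibitor library alone, and WT3 and KO3 their vehicle libraries alone. The summed level was 454 to 1520 CPM in WT and 466 to 626 in KO with vehicle, and 646 to 1085 and 207 to 568 CPM with inhibitor, none of the 10 being at the floor. Thy1, which neurons also express, made up 22.5% to 93.1% of that sum and had a log2 difference of 0.47 in vehicle, so the sum is a poor measure of the others. Col3a1, a fibrillar collagen, had 128, 351 and 37.8 CPM in WT and 11.9, 7.40 and 23.6 in KO with vehicle, and 91.1, 88.2 and 293 CPM in WT and 15.7, 24.3 and 22.0 in KO with inhibitor. All 6 KO libraries thus lay below all 6 WT libraries for Col3a1, which was named after its values were seen. Dcn separated as well, but the other listed genes did not. In vehicle, Col1a1, Col1a2, Lum and Pdgfrb were higher in KO3 than in WT3 (44.0 against 37.3 CPM for Col1a1). The share of all genes that separate in this way was not counted. Among WT libraries, WT2 vehicle had the most Col3a1 and the least Rec8, and WT3 inhibitor had the most Rec8 and much Col3a1. Glutamatergic markers (11 genes) were higher in 4 and lower in 7 over line sums, with a median of -0.09. Neural progenitor and astrocyte markers were higher in 7 of 7 each over line sums (medians of 1.04 and 0.63, 0 called), and in 5 and 4 of 7 (0.12 and 0.15) without the 3 libraries. KO3 inhibitor summed to 819 CPM of progenitor and 1261 CPM of astrocyte genes. Microglial Cx3cr1 and P2ry12, oligodendroglial Mog, endothelial Cldn5 and pluripotency gene Tdgf1 stayed at or under 3 counts. The part of cell mix in the Rec8 difference was not tested.

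The genes beside Rec8 on chromosome 14 are given as the setting of its difference, which chose the set. Of 18 annotated genes within 50 kb, 12 were tested, and their log2 differences between genotypes ran from -0.32 to 0.14 in vehicle (median of -0.04) and from -0.14 to 0.73 in inhibitor (-0.04), with 0 called in edgeR and 0 at an unadjusted p below 0.05. The nearest, Ipo4, a nuclear import receptor on the opposite strand whose annotated end lies 5 bases beyond that of Rec8, was at 112 CPM in WT and 123 in KO with vehicle, and at 116 and 110 CPM with inhibitor. Its differences were 0.14 ± 0.09 in vehicle and -0.07 ± 0.09 in inhibitor (edgeR adjusted p of 0.999 and 0.856). Whether counting used the strand is not given in the sources used here, so reads running past either end could be shared. Irf9, an interferon response factor upstream on the same strand as Rec8, was at 15.6 and 12.8 CPM with vehicle and 18.2 and 30.1 CPM with inhibitor, with differences of -0.28 ± 0.57 and 0.73 ± 0.57. Rec8 overlaps no annotated gene.

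**Figure D5:**
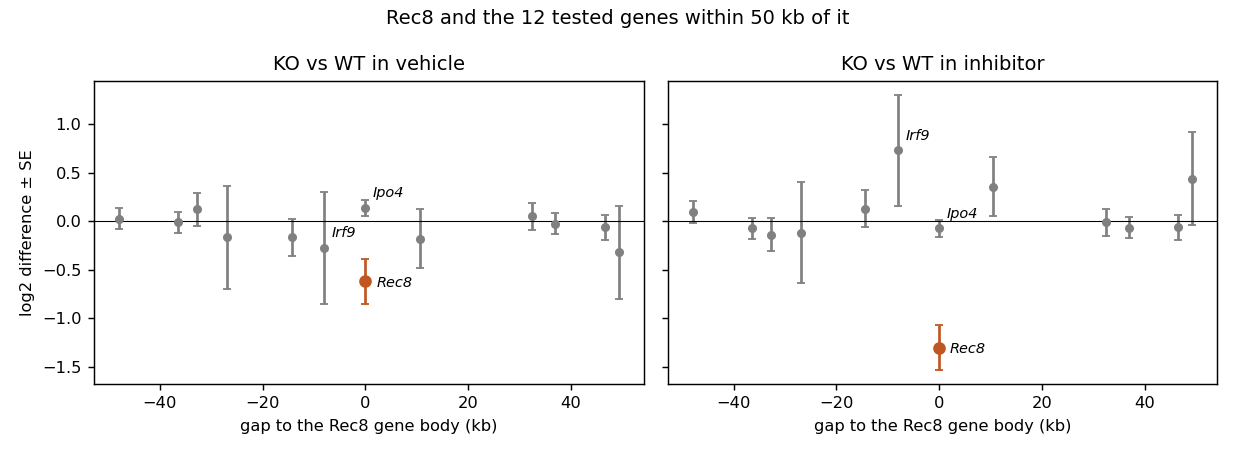
edgeR log2 differences between KO and WT (points, with SE) of Rec8 and the 12 tested genes within 50 kb, by the gap between gene bodies in kb (negative is before Rec8). Rec8, the gene chosen for its difference, lies at -0.62 and -1.30, and its neighbours between -0.32 and 0.73.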

How the data were processed

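Poly(A) RNA was sequenced from 12 libraries. Per the labels' protocols the libraries were strand-specific; per the submitters' processing notes the build was mm10. The authors deposited, for each library, a read count per gene (raw whole numbers) and a cRPKM value (RPKM in a corrected form the labels do not explain) for 36902 Ensembl genes, 3342 of them NA. The aligner and annotation are not given in the sources used here. Symbols matched 33371 genes. Coordinates are from GENCODE M21 (GRCm38).

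The deposited counts were fitted with edgeR 4.0.16 in R 4.3.3 (TMM, filterByExpr, robust quasi-likelihood F test), all 12 libraries with a coefficient per group; for line sums the pair of libraries of a line was added. P-values were adjusted by Benjamini-Hochberg over all genes, with calls below 0.05; SE is the log2 difference over the root of F. The procedure was tested on simulated data. DESeq2 1.42.0, other scalings, no filter, left-out libraries and line blocks were alternatives. Members, lists and the rule for named genes (all members, each list's most abundant and lowest-p genes, neighbours within 50 kb, the 5 genes most like Rec8 and the least like) were chosen with earlier results of these data known. Some genes of the marker lists (Col3a1, Thy1, Nanos2 and Nanos3 among them) and the genes counted as never above 3 counts were named after their values were seen. Vehicle and inhibitor libraries are paired by cell line in the labels; correlations of their deviations from group means ran from -0.723 to 0.574 over 6 lines. WT and KO lines share only a number.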

Additional observations from a re-analysis of the deposited data

How the results depend on the processing

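All results kept their side of the threshold for the tested members under every alternative run. This leaves out Rec8 between genotypes, for which no test is given. Rec8 kept its sign in all 6 comparisons. Counts of called genes left 0 under DESeq2 (11 in KO against WT in vehicle, 18 in inhibitor, 87 over line sums), without a filter (2 over line sums) and, in an alternative chosen after seeing the data, without the 3 libraries that stood apart (2, 1 and 2). Without those 3, the Rec8 difference in inhibitor moved to -1.01. In line sums without those 3, WT2 kept only its inhibitor library, and WT3 and KO3 kept only their vehicle libraries. The replicate block (line number between genotypes and in line sums, cell line for the inhibitor, each for the interaction) changed no call; Rec8 was then at -0.62, -1.33 and -0.97 between genotypes, and -0.72 (cell line) or -0.71 (line number) in the interaction. Signs turned in some differences, the largest with all libraries being that of Stag3 in vehicle between genotypes (0.22). Without the 3 libraries these were Rad21 (0.021), Smc1a (0.16) and Stag3 (-0.10) in vehicle between genotypes, Stag1 (-0.033) in inhibitor between genotypes, Smc1a (0.087), Smc3 (0.0055), Stag2 (-0.026) and Stag3 (-0.30) for the inhibitor in WT, and Stag1 (-0.16) in KO. Rad21 in vehicle was at 0.0017 under DESeq2 and RLE size factors. Stag2 for the inhibitor in WT was at -0.0058 under DESeq2, -0.0060 under RLE size factors and -0.016 without a filter. Stag1 was at -0.0095 with the cell line as a block in KO and at 0.0091 with library totals in the interaction.

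Leaving out 1 library or line at a time turned the sign in some fits, with these ranges. Between genotypes in vehicle: Rad21 -0.058 to 0.029, Smc1a -0.15 to 0.16, Stag2 -0.19 to 0.016, Stag3 -0.11 to 0.48. In inhibitor: Stag1 -0.12 to 0.15. Over line sums: Smc3 -0.030 to 0.34, Stag2 -0.0044 to 0.16, Stag3 -0.35 to 0.076. For the inhibitor in WT: Smc1a -0.17 to 0.11, Smc3 -0.12 to 0.088, Stag2 -0.085 to 0.078, Stag3 -0.27 to 0.35. In KO: Stag1 -0.18 to 0.10. In the interaction: Stag1 -0.25 to 0.023. The cause of these turns was not tested. Levels per length from CPM moved by less than 1 SD. Smc1b was tested only over line sums and Rad21l nowhere, at the depth of these libraries.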
